A study of Mus musculus with 64 samples.

Results

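Zic1, Lhx8, Tbx5, Tbx15, Shox2, En1, Tcf21 and Nr2f1 are 8 transcription factors outside the Hox clusters that are known for marking position in the embryo, and each has been tied to one fat depot or another. They were taken by gene symbol from the count table of each library, and all 8 were found among 24328 genes. Bulk RNA was sequenced from brown fat (BAT), epididymal fat (eWAT, a visceral depot next to the epididymis) and inguinal fat (iWAT, a subcutaneous depot) of mice, in 64 libraries of 15 groups. Levels are CPM, the reads of a gene as a share of its library scaled to a common size, with library sizes adjusted by TMM, a method that balances the libraries against each other.

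The BAT group came from C57BL/6J mice (B6) on a high-fat diet (HFD), with no agent named (n = 4). The eWAT groups were 129S1/SvlmJ (129) HFD control and 129 low-fat diet (LFD) control, then B6 HFD rosi, B6 HFD control and B6 LFD control (n = 4 each), and a first set of B6 HFD and B6 LFD with no agent named (n = 5 each). The iWAT groups were 129 HFD rosi, 129 HFD control, B6 HFD rosi, B6 HFD control and B6 LFD control (n = 4 each), and the B6/129S1 F1 hybrid (F1) on LFD with rosi and as control (n = 5 each). Rosi is taken here as rosiglitazone, an agonist of the nuclear receptor PPAR gamma. In all there were 4 BAT, 30 eWAT and 30 iWAT libraries. The labels give a tissue and no sorting of cells, so fewer cells of a type and less RNA per cell cannot be told apart, and the labels do not say that replicates came from separate animals, so each p-value speaks of the variation among these libraries, part of which may be technical.

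Fat depots arise at different places in the mesoderm, and adipose cells are known to keep the expression of some patterning genes of their place of origin into adult life. Classical brown fat of the back shares its origin with trunk muscle and dermis, visceral fat carries a mesothelial lining, and subcutaneous fat of the groin lies beside the hindlimb. A factor of this kind is therefore used as a label of where a fat sample came from as well as a regulator of the precursor cells.

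The depot labels were checked on marker genes. Ucp1, the uncoupling protein of brown fat, averaged 5680 CPM in BAT, 2.32 CPM in eWAT and 442 CPM in iWAT. The F1 rosi iWAT group carried that last mean, at 2438 ± 1618 CPM (SD, n = 5), while the other iWAT groups averaged 0.78 to 80.1 CPM. Adipoq, which encodes adiponectin of adipocytes, averaged 995 CPM in BAT, 2509 CPM in eWAT and 3026 CPM in iWAT. The mesothelial marker Upk3b was at 0 CPM in all 4 BAT libraries and ran from 26.7 to 209 CPM in eWAT. In iWAT it reached 1.33 CPM at most. Library totals ran from 3099737 to 9551251 counts. The labels name 7 lanes, and run of sequencing went with depot in every depot comparison, so depot and run cannot be told apart there. Skeletal muscle markers (18 of 18 in the files) made up 0.00623 to 0.00791% of counts in BAT, 0.00194 to 0.583% in eWAT and 0.00945 to 9.68% in iWAT. More than 0.1% was reached in 0 of 4 BAT, 1 of 30 eWAT and 9 of 30 iWAT libraries. Stromal markers (10 of 10) made up 0.0778 to 0.222% of counts in B6 HFD BAT, 0.85 to 1.28% in B6 HFD control eWAT and 0.574 to 1.07% in B6 HFD control iWAT. Macrophage markers (10 of 11) made up 0.0127 to 0.0571% in that BAT, 0.389 to 1.21% in that eWAT and 0.112 to 0.225% in that iWAT. None of either list was at 0 in these groups, and both lists were lower in that BAT than in that eWAT and that iWAT, with no overlap. In F1 rosi iWAT the stromal list made up 0.209 to 0.36% and the macrophage list 0.014 to 0.0279%. Both of these ranges overlapped those of BAT. In F1 control iWAT the macrophage list, at 0.0289 to 0.126%, overlapped too. The part of both lists in the depot differences below was not tested. The library of B6 HFD rosi eWAT replicate 4 stood apart, with a count in 21330 genes and 44.6% of reads outside genes, against 16781 to 17085 genes and 30.5 to 35.4% in the rest of its group.

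Promoter windows are shown for Zic1, Shox2 and Tcf21, which stood out in BAT, in iWAT and in eWAT. Each window holds the 250 bases before the RefSeq start in build GRCm38.p6, written 5′ to 3′ on the gene's strand, with CG dinucleotides in capitals. The Zic1 window lies at chr9:91365769-91366018, that of Shox2 at chr3:66981772-66982021 and that of Tcf21 at chr10:22820144-22820393, all on the minus strand. The counts themselves were made on build mm9.
Zic1: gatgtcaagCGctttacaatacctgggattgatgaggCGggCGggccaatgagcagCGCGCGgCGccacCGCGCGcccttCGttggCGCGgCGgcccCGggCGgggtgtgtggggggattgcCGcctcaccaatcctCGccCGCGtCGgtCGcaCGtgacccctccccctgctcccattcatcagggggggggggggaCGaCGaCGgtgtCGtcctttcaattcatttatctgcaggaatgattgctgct
Shox2: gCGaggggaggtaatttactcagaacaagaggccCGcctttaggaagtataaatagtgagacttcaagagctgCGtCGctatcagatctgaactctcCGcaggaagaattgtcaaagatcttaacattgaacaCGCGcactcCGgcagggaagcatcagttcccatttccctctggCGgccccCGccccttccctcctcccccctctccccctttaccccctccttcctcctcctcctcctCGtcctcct
Tcf21: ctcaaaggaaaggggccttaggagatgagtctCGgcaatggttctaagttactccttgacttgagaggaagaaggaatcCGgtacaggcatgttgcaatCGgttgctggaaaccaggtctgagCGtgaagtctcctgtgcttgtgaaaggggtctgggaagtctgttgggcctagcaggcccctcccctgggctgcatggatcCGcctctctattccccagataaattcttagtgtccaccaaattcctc
The Zic1 window held 27 CG dinucleotides, the Shox2 window 11 and the Tcf21 window 5, against a median of 6 over 32851 RefSeq promoter windows of this length, so the 3 genes did not share a CG-rich or a CG-poor start. Of the other members, En1 had 19, Lhx8 had 4, and the 2 start sites of Nr2f1 had 22 and 2. Tbx15 and Tbx5 had no window. Motifs of the members' own families were searched on both strands: TAATTA for homeodomains, AGGTGT for T-box factors, AGGTCA for nuclear receptors and CAGCTG for basic helix-loop-helix factors, with TATAAA for the TATA box. No motif is contained in another, and AGGTGT and AGGTCA share their first letters. The windows with TAATTA were 4.84% of all windows, those with AGGTGT 11.8%, with AGGTCA 14%, with CAGCTG 13% and with TATAAA 12.4%. The members' windows held 1 match, a TATAAA in the Shox2 window.

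**Figure D1:**
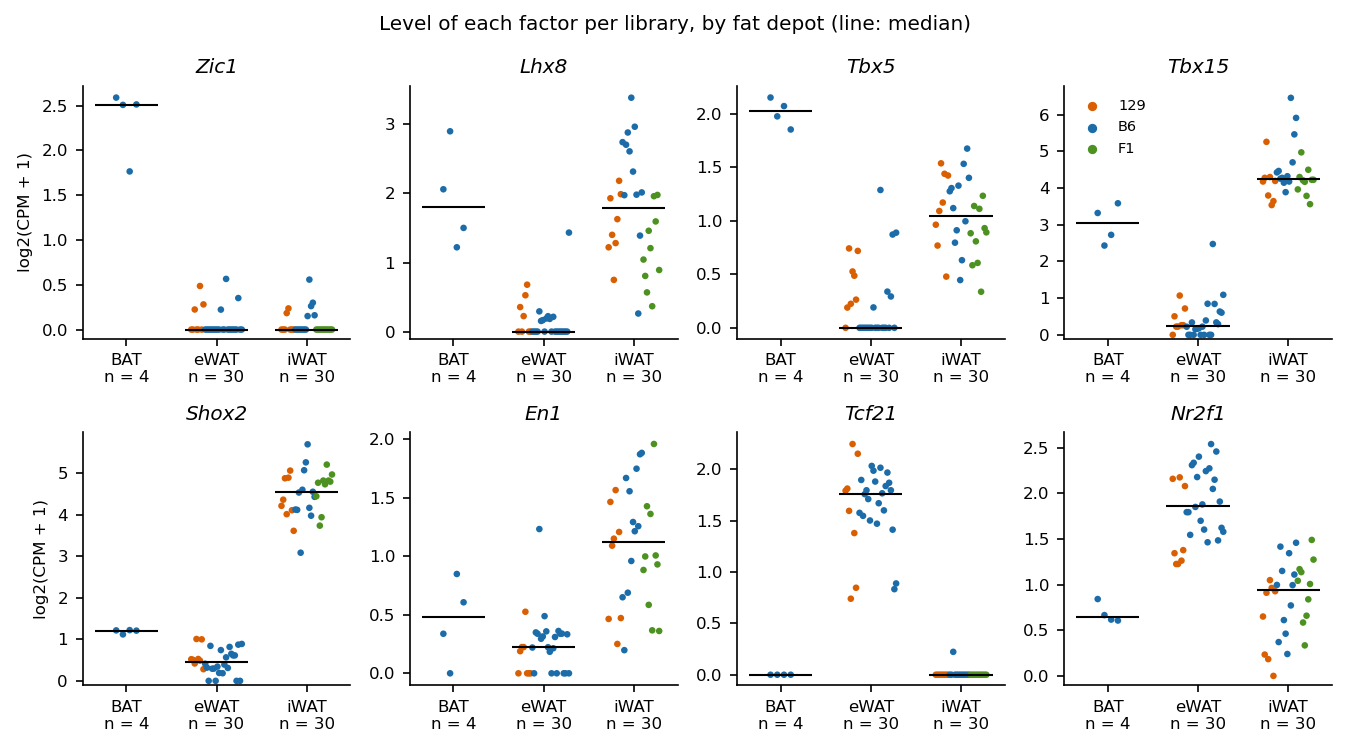
Level of each member in every library as log2(CPM + 1), in BAT (n = 4), eWAT (n = 30) and iWAT (n = 30), with points coloured by strain and a line at the median. Zic1 stood above 0.48 CPM in BAT alone, Tcf21 was counted in all 30 eWAT libraries and in 1 of 30 iWAT libraries, and the eWAT libraries of Tbx15 and Shox2 lay below all iWAT libraries.

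Across the 2 white depots, 3 of the 8 members separated every eWAT library from every iWAT library. Tcf21 was higher in all 30 eWAT libraries than in any iWAT library, as were 0.262% of 14487 genes. Tbx15 and Shox2 were lower in all 30 eWAT libraries than in any iWAT library, as were 0.0828% of those genes. The 12 genes of that second kind also included Hoxa9, Hoxa10 and Hoxc10, and the 38 of the first kind included Wt1, Bnc1 and Gata5, patterning factors that are also expressed by mesothelium. With only 4 libraries, BAT lay wholly above iWAT for Zic1 and Tbx5 (7.46% of genes) and wholly below it for Shox2 (5.14% of genes). BAT lay wholly above eWAT for Zic1, Shox2 and Tbx5 (11.9% of genes) and wholly below it for Tcf21 and Nr2f1 (9.81% of genes). These ranges are a description in which each white depot has 7 groups that mix strain, diet and drug. Members were chosen with earlier results of these data known, so their number beside the shares of all genes is not independent evidence. The 3 members kept apart when libraries over 0.1% muscle counts were left out, an alternative chosen after seeing the data, and under both other scalings of CPM.

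A first set of members is known from brown fat or from the forelimb and trunk: Zic1, a zinc-finger factor of neural tube and somites that is widely used as a classical brown fat marker, Lhx8, a LIM-homeodomain factor of the forebrain and tooth that has been used in the same way, and Tbx5, the T-box factor of heart and forelimb. Zic1 was at 5.02, 4.69, 2.4 and 4.71 CPM in the 4 B6 HFD BAT libraries. It had 0 counts in all 4 B6 HFD control eWAT libraries and in all 4 B6 HFD control iWAT libraries. No white fat library reached the lowest BAT library, the highest being 0.48 CPM in eWAT, in B6 HFD rosi replicate 4 (0.401 CPM without it), and 0.472 CPM in iWAT. Zic1 was at least 39.2-fold higher in BAT than in B6 HFD control iWAT and at least 44.2-fold higher than in B6 HFD control eWAT, against a floor of 3 counts over a group (edgeR quasi-likelihood test, Benjamini-Hochberg adjusted p = 2.7e-05 and 9.3e-05). With 0 counts in both white groups, Zic1 passed the filter on low counts only through BAT and so had to differ. These p-values are therefore no separate support. The few Zic1 reads of white fat came to 9 counts in 6 of 30 eWAT libraries and 11 counts in 7 of 30 iWAT libraries. All 4 B6 LFD control iWAT libraries had some, 8 counts in all at 0.472, 0.199, 0.231 and 0.117 CPM, and these are libraries in which muscle markers made up 0.91 to 9.68% of counts.

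Tbx5 was likewise highest in BAT, but it was also read throughout iWAT. It was at 3.44, 2.93, 3.2 and 2.61 CPM in B6 HFD BAT, against 0.263 to 2.19 CPM (median 1.06) over the 30 iWAT libraries and 0 to 1.44 CPM (median 0) over the 30 eWAT libraries. The 1.44 CPM, 9 of the 32 Tbx5 counts in eWAT, belonged to B6 HFD rosi replicate 4, and without it eWAT reached 0.851 CPM. BAT lay above every white fat library. In B6 mice on HFD, Tbx5 averaged 3.05 ± 0.354 CPM in BAT and 1.2 ± 0.335 CPM in control iWAT (SD, n = 4 each), a log2 fold change of 1.38 ± 0.29 (SE, adjusted p = 0.00146). BAT had 45 counts and control eWAT of these mice had 1, a ratio of 96.2 with an exact 95% counting interval of 16.4 to 3885 (adjusted p = 1.93e-05). Between the white depots, Tbx5 did not pass the filter on low counts. With no filter, eWAT was lower than iWAT in B6 mice (1 count against 33, edgeR adjusted p = 0.00124), as by DESeq2 (adjusted p = 7.99e-05). In 129 mice the log2 fold change was -2.28 ± 0.68 with no filter (edgeR adjusted p = 0.041), and DESeq2 did not call it (adjusted p = 0.056).

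Lhx8 did not follow Zic1. It was at 3.17, 6.46, 1.33 and 1.83 CPM in B6 HFD BAT and at 5.69, 2.93, 5.52 and 6.37 CPM in B6 HFD control iWAT, and these ranges overlapped. BAT against iWAT gave a log2 fold change of -0.67 ± 0.42 (SE, n = 4 each, adjusted p = 0.178). Without BAT replicate 2, which held the highest value, it was -1.23 and passed (adjusted p = 0.0154). Lhx8 was low in visceral fat, with counts in 12 of 30 eWAT libraries and a median of 0 CPM, against a median of 2.45 CPM in iWAT, where all 30 libraries had counts. In B6 mice on HFD, eWAT held 3 counts and iWAT 145, and iWAT exceeded eWAT by a ratio of 54.5 (exact 95% counting interval 18.3 to 267, adjusted p = 0.000594). In 129 mice eWAT held 3 counts and iWAT 41, and the pair passed with no filter (adjusted p = 0.00465). The eWAT library of B6 LFD control replicate 4 had 1.7 CPM and stood apart from the other 29, which reached 0.601 CPM. BAT held 46 counts and B6 HFD control eWAT held 3, a ratio of 32.8 (exact 95% counting interval 10.5 to 165). That pair was not tested by edgeR, since Lhx8 did not pass its filter on low counts there, and it passed with no filter (adjusted p = 0.000172).

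Others are known from limb, skeleton and skin: Tbx15, a T-box factor of skeletal development that is also expressed in fast muscle fibres, Shox2, a homeobox factor of the proximal limb and the cardiac pacemaker, and En1, an engrailed homeobox factor that marks trunk dermomyotome and dermis. Tbx15 was at 8.99, 4.4, 5.61 and 11 CPM in B6 HFD BAT. It was at 0.113, 0.122, 0.134 and 0 CPM in B6 HFD control eWAT and at 20.5, 21.1, 18.1 and 18.4 CPM in B6 HFD control iWAT. The 3 depots of B6 mice on HFD thus did not overlap, with BAT between iWAT and eWAT. Tbx15 was lower in BAT than in iWAT, with a log2 fold change of -1.33 ± 0.23 (SE, n = 4 each, edgeR adjusted p = 0.000362), and higher in BAT than in eWAT (adjusted p = 1.24e-05), where 112 counts stood against 3 (ratio 79.8, exact 95% counting interval 26.6 to 393). In eWAT against iWAT of B6 mice it was lower (adjusted p = 7.55e-06), at 3 counts against 546, and iWAT held 205-fold more (exact 95% counting interval 69.9 to 998).

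In 129 mice, Tbx15 was at 0, 0.419, 0.168 and 0.168 CPM in HFD control eWAT, against 17.1, 18.4, 37.3 and 12.9 CPM in HFD control iWAT. Its log2 fold change was -6.69 ± 0.56 (SE, n = 4 each, edgeR adjusted p = 2.37e-05). Shox2 was at 0.434, 0.419, 0.336 and 1.01 CPM in the same eWAT libraries, against 17.5, 19.5, 28.3 and 15.1 CPM in iWAT, with a log2 fold change of -5.19 ± 0.33 (adjusted p = 6.05e-06). Both were therefore lower in eWAT in either strain, and the difference between strains in these depot differences was not called for any of the 5 members tested (edgeR interaction test over the 4 HFD control groups, 0 called, 0 at an unadjusted p under 0.05, 0 by DESeq2, with 26.8% of all genes called).

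Shox2 differed from Tbx15 in brown fat, where it was low, at 5, 4, 5 and 5 counts in the BAT libraries. It was at 1.32, 1.17, 1.33 and 1.31 CPM in B6 HFD BAT, against 0.227, 0, 0.268 and 0.141 CPM in B6 HFD control eWAT and 16.4, 16.3, 22.1 and 7.47 CPM in B6 HFD control iWAT. Every BAT library lay below all 30 iWAT libraries and above all 30 eWAT libraries, whose highest was 1.01 CPM. That eWAT value came from 6 counts and the lowest BAT value, 1.17 CPM, from 4, so the gap rests on few reads. The log2 fold change of BAT against iWAT was -3.53 ± 0.4 (SE, n = 4 each, edgeR adjusted p = 2.1e-05), and that of eWAT against iWAT in B6 mice was -6.54 ± 0.54 (adjusted p = 0.000556). In BAT against eWAT it did not pass the filter on low counts, and with no filter it was higher in BAT, at 2.94 ± 0.61 (adjusted p = 0.00189). Rsrc1, a splicing-related gene that overlaps Shox2 on the opposite strand, was at 14.7 to 27.5 CPM in BAT, 19.5 to 32.7 CPM in eWAT and 28.6 to 47 CPM in iWAT. The strand setting of the counting is not given in the sources used here, so reads of the pair cannot be told apart with certainty.

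En1 was the weakest of the 3 in iWAT. It ran from 0 to 0.801 CPM in BAT, from 0 to 1.35 CPM (median 0.167) in eWAT, where 10 of 30 libraries had no count, and from 0.147 to 2.89 CPM (median 1.18) over all 30 iWAT libraries. The ranges of the depots overlapped. It did not pass the filter on low counts in any depot comparison, and with no filter it was lower in eWAT than in iWAT of 129 mice, at -3.11 ± 0.70 on the log2 scale (n = 4 each, edgeR adjusted p = 0.00943), and at -1.58 ± 0.73 in B6 mice (adjusted p = 0.13).

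The remaining pair is known from visceral mesoderm and nerve: Tcf21, a basic helix-loop-helix factor of kidney, lung, heart and visceral stroma, and Nr2f1, an orphan nuclear receptor also called COUP-TFI with roles in the developing nervous system. Tcf21 was at 2.27, 1.83, 3.09 and 2.96 CPM in B6 HFD control eWAT and at 2.46, 2.51, 2.02 and 0.67 CPM in 129 HFD control eWAT. It had 0 counts in all 4 BAT libraries, and iWAT held 1 count over 30 libraries, in B6 HFD control replicate 3. Against eWAT of B6 mice, BAT was at least 12.3-fold lower (edgeR adjusted p = 0.000401). Between eWAT and iWAT of these mice, 79 counts stood against 1, a ratio of 70.1 (exact 95% counting interval 12.2 to 2802, adjusted p = 0.00112). In both pairs Tcf21 passed the filter on low counts only through eWAT and so had to differ. Their p-values are therefore no separate support. In 129 mice, eWAT was at least 17.2-fold higher than iWAT, a pair that did not pass the filter on low counts and was called with no filter (edgeR adjusted p = 0.000641).

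Between depots, mesothelial markers moved with Tcf21. The 10 of 11 listed markers that the files held made up 0.000308 to 0.000395% of counts in BAT, with Msln, Upk3b, Upk1b, Krt18 and Bnc1 at 0. They made up 0.0115 to 0.0865% in eWAT and 0.000277 to 0.00416% in iWAT. Their part in the level of Tcf21 was not tested.

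Nr2f1 was higher in eWAT but was read in all 3 depots. It was at 0.793, 0.587, 0.534 and 0.523 CPM in B6 HFD BAT, at 2.61, 3.53, 4.29 and 2.25 CPM in B6 HFD control eWAT, and at 0.996, 0.293, 1.67 and 1.22 CPM in B6 HFD control iWAT. Within these groups eWAT lay above both others, while over all libraries 23 of 30 eWAT libraries lay above every iWAT library. The log2 fold change was -2.24 ± 0.35 for BAT against eWAT (SE, n = 4 each, edgeR adjusted p = 0.000446) and 1.51 ± 0.4 for eWAT against iWAT (adjusted p = 0.0149). In 129 mice Nr2f1 averaged 1.92 ± 1.04 CPM in eWAT and 0.441 ± 0.353 CPM in iWAT (SD, n = 4 each), which passed with no filter on low counts (edgeR adjusted p = 0.0265). A830082K12Rik, which overlaps Nr2f1 on the opposite strand, had medians of 0.399 CPM in BAT, 1.23 CPM in eWAT and 0.601 CPM in iWAT. Zic4, a relative of Zic1 that overlaps it on the opposite strand, was at 0.523 to 1.47 CPM (median 0.796) in BAT, from 13 counts in 4 libraries. Its median was 0 CPM in eWAT (21 counts in 30 libraries, at most 0.898 CPM) and in iWAT (2 counts in 30 libraries, at most 0.178 CPM). By median, Zic4 was thus highest in BAT, as Zic1 was. The strand setting being unknown, reads of these pairs too cannot be told apart with certainty.

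**Figure D2:**
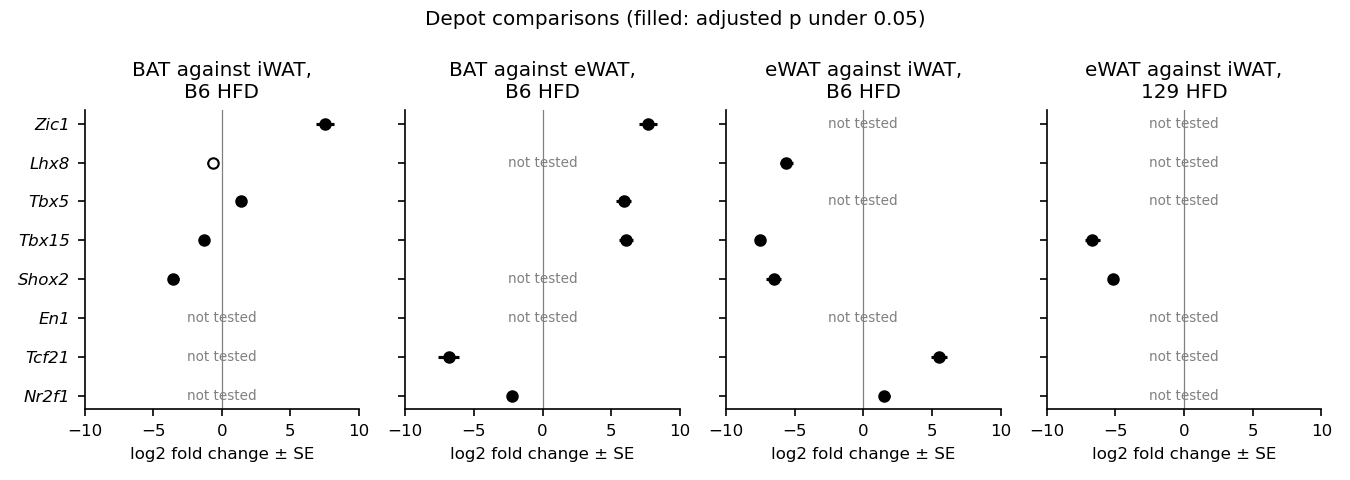
Fitted log2 fold change with its SE in the 4 depot comparisons (n = 4 each side), filled where the adjusted p was under 0.05, with members that did not pass the filter on low counts marked as not tested. Tbx15 and Shox2 lay below 0 in eWAT against iWAT in both strains, and Zic1 and Tbx5 lay above 0 in BAT against both white depots; the points of Zic1, and of Tcf21 in BAT against eWAT, rest on a group with 0 counts and are not bounds.

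Counted by comparison, 2 of 5 tested members were higher and 2 lower in BAT than in iWAT of B6 mice on HFD, where 65.3% of all tested genes were called, 32.1% higher and 33.2% lower. In BAT against eWAT, 3 of 5 were higher and 2 lower, with 65.6% of all genes called, 31.5% higher and 34.2% lower. In eWAT against iWAT of B6 mice, 2 of 5 were higher and 3 lower, with 48.9% of all genes called, 26% higher and 22.9% lower. Both members tested in eWAT against iWAT of 129 mice were lower, with 17.8% of all genes called, 10.1% higher and 7.71% lower. A member all but absent from 1 side passed the filter only through the other side and so had to differ. This holds for Zic1 and Tcf21, and for Tbx15, Shox2, Lhx8 and Tbx5 where tested against eWAT. With many genes called, the counts also do not set the members apart. Filtering decided the 129 count: 7 of 8 members were called with no filter, 6 by DESeq2 and 7 in a fit over all 64 libraries. Over all genes, DESeq2 called 2304 and the fit over all 64 libraries called 1448, against 2264 of 12738 in the filtered edgeR test. The number for all genes with no filter is not reported here.

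Related factors gave mixed patterns. Of 36 family relatives of the members, such as other Tbx, Zic, Lhx and Nr2f genes, 9 were tested in BAT against iWAT, with 2 higher and 4 lower and a median log2 fold change of -0.46, against -0.02 for all genes. Of 57 other patterning factors, 20 were tested, with 5 higher and 4 lower (45% called, median 0.18). Over all tested genes, 65.3% were called in this comparison. Ebf2, a factor of brown precursor commitment, was at 98.5 ± 14.9 CPM in BAT and 26.5 ± 3.26 CPM in iWAT (SD, n = 4 each), and was higher in BAT with a log2 fold change of 1.93 ± 0.13 (edgeR adjusted p = 3.48e-07). Nr2f6, a relative of Nr2f1, was higher in BAT (1.16 ± 0.11, adjusted p = 6.54e-06), and so was Tbx3, a relative of Tbx5 and Tbx15 (0.92 ± 0.30, adjusted p = 0.0177). Eya4, a transcriptional coactivator, was lower in BAT (-4.13 ± 0.58, adjusted p = 0.0001), as was Osr1 of intermediate and limb mesoderm (-2.85 ± 0.34, adjusted p = 3.17e-05). Lhx6, a relative of Lhx8, was also lower (-1.01 ± 0.20, adjusted p = 0.000973).

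Against eWAT, BAT had 3 of 12 tested relatives higher and 6 lower, and 9 of 23 other factors higher and 8 lower. Of all tested genes, 65.6% were called there. Prdm16, a coregulator of brown fat, was higher in BAT (2.49 ± 0.55, edgeR adjusted p = 0.00318), and Alx4, a limb and skull homeobox factor, was lower (-3.94 ± 0.65, adjusted p = 0.000574). For eWAT against iWAT of B6 mice, 3 of 13 relatives were higher and 3 lower, and 6 of 24 other factors were higher and 6 lower. The share of all genes called was 48.9%. Wt1, the Wilms tumour factor of mesothelium, was higher in eWAT (adjusted p = 0.000807), as was Alx4 (3.02 ± 0.60, adjusted p = 0.00478). Tbx2 (-1.55 ± 0.30, adjusted p = 0.0041) and Lhx6 (-1.22 ± 0.30, adjusted p = 0.0102) were lower in eWAT, the direction of Tbx15 and Lhx8. In 129 mice, 1 of 10 relatives was higher and 0 lower, and 7 of 23 other factors were higher and 3 lower, with Wt1 (adjusted p = 7.75e-06) and Bnc1 (7.20 ± 0.48, adjusted p = 7.75e-06) among them. The share of all genes called in 129 mice was 17.8%.

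Within iWAT, the diets of B6 mice differed for Tbx15. It was at 20.5, 21.1, 18.1 and 18.4 CPM on HFD and at 86.9, 25, 43.1 and 59.2 CPM on LFD, with no overlap and a wide spread on LFD alone. HFD was lower, with a log2 fold change of -1.47 ± 0.3 (SE, n = 4 each, edgeR adjusted p = 0.00771), and 22.7% of all tested genes were called in this comparison. Skeletal muscle markers moved with it: they made up at most 0.0328% of counts in each HFD library and 9.68, 0.91, 2.98 and 4.36% in the LFD libraries, in the order given for Tbx15, so the LFD library with the most Tbx15 held the most muscle. Of the 18 markers, Myh7 was at 0 on HFD and 0 were at 0 on LFD. Among 129 HFD control iWAT libraries, replicate 3 with 37.3 CPM of Tbx15 had 4.73% muscle counts, while the others had at most 0.0473% and 12.9 to 18.4 CPM. In eWAT, the highest Tbx15 value, 4.56 CPM in replicate 3 of the first B6 LFD set, came with the highest muscle share of that depot, 0.583%. No B6 LFD iWAT library was free of muscle markers, so diet and muscle cannot be told apart for Tbx15 or for any other gene in this comparison. Without the libraries over 0.1%, Tbx15 ran from 10.6 to 30.4 CPM over 21 iWAT libraries and reached 1.13 CPM over 29 eWAT libraries. Shox2 did not follow the muscle share, being at 16.9, 14.7, 22.4 and 20.5 CPM in the same LFD libraries.

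**Figure D3:**
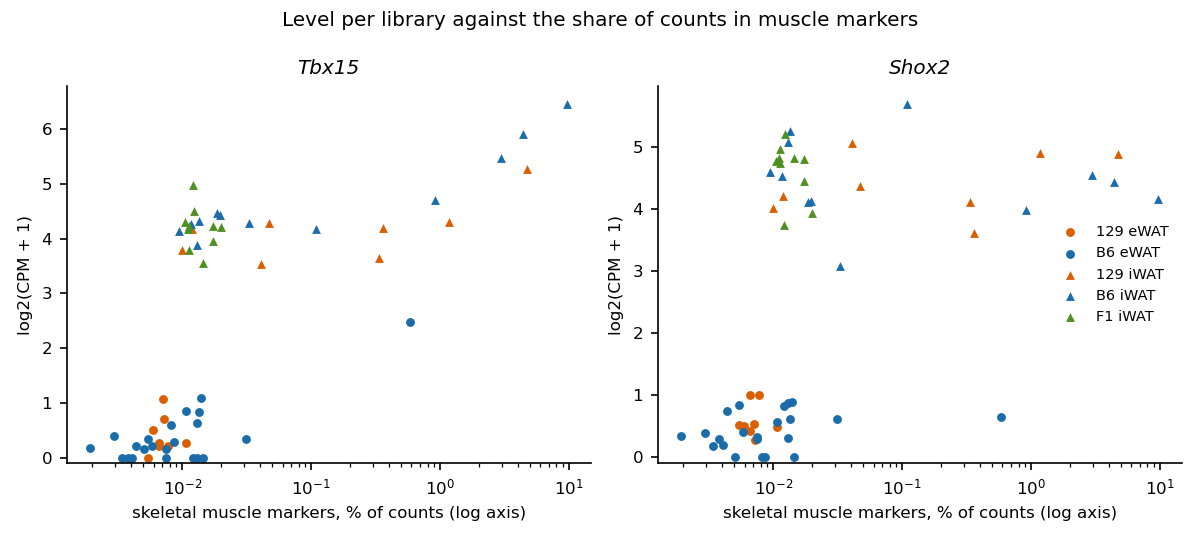
Tbx15 and Shox2 as log2(CPM + 1) in each eWAT (circles) and iWAT (triangles) library against the percentage of its counts in 18 skeletal muscle markers on a log axis. The iWAT libraries above 2% of muscle counts held the highest Tbx15 values, 37.3 to 86.9 CPM, while Shox2 in those libraries lay at 16.9 to 28.3 CPM, within the range of the rest.

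The other members gave no call for diet in iWAT in the same test. Muscle share went with diet for them too, and its part in the values below was not tested. Shox2 averaged 15.5 ± 6.04 CPM on HFD and 18.6 ± 3.48 CPM on LFD (SD, n = 4 each), a log2 fold change of -0.28 ± 0.27 (edgeR adjusted p = 0.495). Lhx8 averaged 5.13 ± 1.51 CPM on HFD and 1.95 ± 1.34 CPM on LFD, a log2 fold change of 1.30 ± 0.45 (adjusted p = 0.0603), near the threshold. It passed by DESeq2 (1.35, adjusted p = 0.0282), with unscaled library totals (1.38, adjusted p = 0.0477), without LFD replicate 2 (1.02, adjusted p = 0.0414) and without HFD replicate 2 (adjusted p = 0.0444). En1 averaged 0.876 ± 0.892 CPM on HFD and 2.27 ± 0.608 CPM on LFD (-1.47 ± 0.52, adjusted p = 0.0689), and passed without HFD replicate 3, which had 2.18 CPM (-2.32, adjusted p = 0.00955). Tbx5 averaged 1.2 ± 0.335 CPM on HFD and 1.68 ± 0.511 CPM on LFD (-0.54 ± 0.32, adjusted p = 0.252). Zic1 had 0 counts on HFD and 8 on LFD, at least 2.43-fold lower on HFD. It did not pass with no filter (edgeR adjusted p = 0.0563) and passed in the fit over all libraries (adjusted p = 0.0289).

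Strain differences in iWAT concerned Lhx8. On HFD without drug it was at 1.33, 2.81, 1.64 and 0.68 CPM in 129 mice and at 5.69, 2.93, 5.52 and 6.37 CPM in B6 mice, with no overlap. Its log2 fold change was -1.71 ± 0.38 (SE, n = 4 each, edgeR adjusted p = 0.00696), 1 of 3 tested members, with 27.8% of all genes called. On HFD with rosi it was at 1.43, 2.09, 3.54 and 2.97 CPM in 129 mice and at 5.1, 9.45, 3.98 and 6.81 CPM in B6 mice, again with no overlap. This made a log2 fold change of -1.32 ± 0.33 (adjusted p = 0.0238), 1 of 3 tested members, with 16% of all genes called. That second call did not hold without 129 rosi replicate 2 (-1.25, adjusted p = 0.0604) or 4 (-1.39, adjusted p = 0.0508), or B6 rosi replicate 2 (-1.09, adjusted p = 0.0565) or 4 (-1.30, adjusted p = 0.0655), or in the fit over all libraries (-1.34, adjusted p = 0.0622). Muscle markers made up 0.0411 to 1.17% of counts in the 129 rosi libraries, 0.358% in replicate 4, and 0.00945 to 0.109% in the B6 rosi libraries, and their part in the Lhx8 difference was not tested. Strain went with the sequencing lane here, and the 2 cannot be told apart. F1 mice on LFD had Lhx8 at 1.8 ± 1.2 CPM with rosi and 1.07 ± 0.492 CPM as control (SD, n = 5 each), on another diet and run, so no strain comparison was made.

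Tbx15 and Shox2 did not pass between strains in iWAT. Without drug, Tbx15 averaged 21.4 ± 10.8 CPM in 129 mice and 19.5 ± 1.51 CPM in B6 mice (SD, n = 4 each), a log2 fold change of 0.13 ± 0.27 (edgeR adjusted p = 0.768), which was -0.29 without 129 replicate 3, the muscle-rich library. Shox2 averaged 20.1 ± 5.77 CPM in 129 mice and 15.5 ± 6.04 CPM in B6 mice (0.37 ± 0.29, adjusted p = 0.375). With rosi, Shox2 averaged 22.1 ± 9.98 CPM in 129 mice and 35.9 ± 11.4 CPM in B6 mice (-0.74 ± 0.32, adjusted p = 0.143), and Tbx15 averaged 14.5 ± 4.06 CPM in 129 mice and 16.7 ± 2.15 CPM in B6 mice (-0.22 ± 0.20, adjusted p = 0.494).

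Rosi was set against control in 3 iWAT pairs and 1 eWAT pair, and of the members tested Shox2 in B6 iWAT was the 1 called by edgeR. In B6 iWAT on HFD it was at 23.2, 32.5, 37.2 and 50.6 CPM with rosi and at 16.4, 16.3, 22.1 and 7.47 CPM in control, with no overlap. The log2 fold change was 1.21 ± 0.30 (SE, n = 4 each, edgeR adjusted p = 0.0243), 1 of 3 tested members, with 13.2% of all genes called. The call was lost, with the adjusted p between 0.0509 and 0.0806, without rosi replicate 3 (1.21) or 4 (1.02) or control replicate 1 (1.24) or 2 (1.24). Rosi replicate 4, with the highest Shox2 value, was also the 1 library of this comparison over 0.1% muscle counts, at 0.109%, and the part of muscle in the result was not tested. In F1 iWAT on LFD, Shox2 was at 25.5, 35.8, 27.2, 26.7 and 30.2 CPM with rosi and at 20.7, 26.2, 12.3, 14.3 and 27.2 CPM in control, ranges that overlapped at the top of the controls. The log2 fold change was 0.53 ± 0.20 (n = 5 each, adjusted p = 0.0522), short of the threshold. It passed without control replicate 1 (0.56, adjusted p = 0.0439), 2 (0.66, adjusted p = 0.0288) or 5 (0.68, adjusted p = 0.0225). Of the 2 members tested in F1 mice, 0 were called by edgeR, 1 had an unadjusted p under 0.05 and 0 were called by DESeq2, with 37.8% of all genes called.

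In 129 iWAT on HFD, Shox2 was at 28.6, 32.3, 16.2 and 11.2 CPM with rosi and at 17.5, 19.5, 28.3 and 15.1 CPM in control, and the ranges overlapped. Its log2 fold change was 0.11 ± 0.32 (SE, n = 4 each, edgeR adjusted p = 0.965). Of 3 members tested there, 0 were called by edgeR, 0 had an unadjusted p under 0.05 and 0 were called by DESeq2, with 0.11% of all genes called. The difference between the strains in the Shox2 effect, 129 minus B6, was -1.13 ± 0.48 on the log2 scale (edgeR interaction test, unadjusted p = 0.0318, adjusted p = 0.475), so it was not shown to differ. Of the 4 members tested for this interaction, 0 were called, 1 had an unadjusted p under 0.05 and 0 were called by DESeq2, with 0.106% of all genes called.

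Brown adipocyte markers moved with rosi in iWAT of B6 and F1 mice, with no overlap between rosi and control. The 10 of 10 listed markers made up 0.0196 to 0.0451% of counts with rosi and 0.00575 to 0.014% in control in B6 mice, and 0.204 to 0.635% with rosi and 0.0249 to 0.0574% in control in F1 mice. In 129 mice they made up 0.0137 to 0.0395% with rosi and 0.013 to 0.0519% in control, which overlapped. In B6 eWAT on HFD they made up 0.0077 to 0.0133% with rosi and 0.0029 to 0.00543% in control, with no overlap. Adipocyte, stromal and nerve markers of B6 iWAT overlapped between rosi and control. The 8 adipocyte markers made up 3.07 to 4.05% of counts with rosi and 2.79 to 3.26% in control, and 10 stromal markers made up 0.315 to 0.982% with rosi and 0.574 to 1.07% in control. The 10 nerve and Schwann markers made up 0.0459 to 0.0712% with rosi and 0.0687 to 0.0789% in control, and in F1 iWAT 0.0421 to 0.0546% with rosi and 0.0909 to 0.126% in control. Adipocyte markers of F1 iWAT made up 2.54 to 3.3% with rosi and 1.84 to 2.32% in control. Stromal markers there made up 0.209 to 0.36% with rosi and 0.382 to 0.753% in control. In F1 mice none of these lists overlapped between rosi and control. The part of these lists in the level of Shox2 was not tested. Lhx8 and Tbx15 did not pass: Lhx8 averaged 6.33 ± 2.38 CPM with rosi and 5.13 ± 1.51 CPM in control (0.28 ± 0.30, edgeR adjusted p = 0.598), and Tbx15 averaged 16.7 ± 2.15 CPM with rosi and 19.5 ± 1.51 CPM in control (-0.24 ± 0.12, adjusted p = 0.236).

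**Figure D4:**
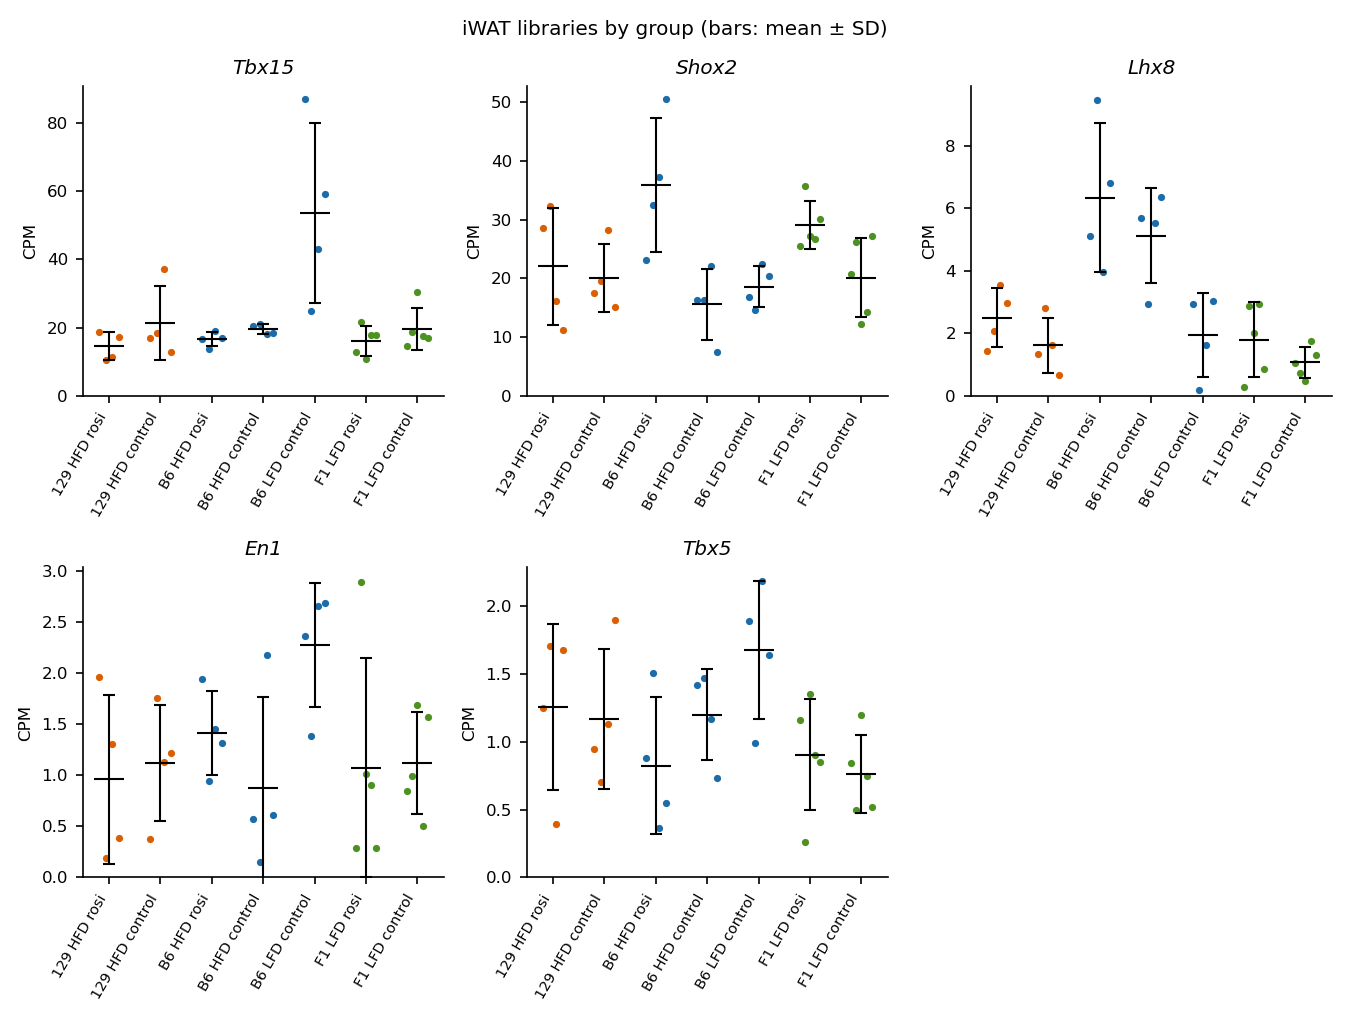
CPM of the 5 members read in all 30 iWAT libraries, by group, with 1 point per library and bars for the mean ± SD (n = 4 for 129 and B6, n = 5 for F1), ending at the axis where they would pass below 0. Tbx15 was highest and most spread in B6 LFD control, Shox2 lay higher with rosi than in control in B6 HFD mice, and Lhx8 lay lower in 129 than in B6 on HFD.

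Inside eWAT, Tcf21 and Nr2f1 were the members with enough counts to test, and neither passed for diet, rosi or strain. Tcf21 averaged 1.91 ± 0.858 CPM on HFD and 2.4 ± 1.42 CPM on LFD in 129 controls (SD, n = 4 each), with a log2 fold change of -0.29 ± 0.45 (edgeR adjusted p = 0.677). In B6 controls of the second set it averaged 2.53 ± 0.592 CPM on HFD and 1.44 ± 0.794 CPM on LFD (0.63 ± 0.38, adjusted p = 0.188). Diet and run cannot be told apart in these 2 pairs. The first B6 set, run on 1 lane, had 2.29 ± 0.338 CPM on HFD and 2.51 ± 0.325 CPM on LFD (n = 5 each). Tcf21 did not pass the filter on low counts there and was not called with no filter (-0.09 ± 0.26, adjusted p = 0.815). With rosi in B6 eWAT on HFD, Tcf21 averaged 2.42 ± 0.557 CPM, against 2.53 ± 0.592 CPM in control (log2 fold change 0.03 ± 0.29, adjusted p = 0.991). The fold change was -0.17 (adjusted p = 0.999) without rosi replicate 4, the library that stood apart. Tcf21 thus stayed between 1.44 and 2.53 CPM in every eWAT group mean.

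Nr2f1 averaged 2.97 ± 0.966 CPM on HFD and 3.95 ± 0.707 CPM on LFD in the first B6 set (SD, n = 5 each, log2 fold change -0.42 ± 0.24, edgeR adjusted p = 0.156). In the second set it averaged 3.17 ± 0.922 CPM on HFD and 2.16 ± 0.422 CPM on LFD (n = 4 each, 0.42 ± 0.29, adjusted p = 0.254), so the 2 sets differed in sign and neither passed. The sets themselves differed on LFD: Nr2f1 was at 1.8, 2.76, 2.08 and 1.99 CPM in the second set and at 3.84, 4.82, 3.14, 3.44 and 4.5 CPM in the first, with no overlap and a log2 fold change of -0.81 ± 0.25 (adjusted p = 0.0274), the 1 member tested, with 28.9% of all genes called. Run went with the set there, and the libraries also differed in reads outside genes. These were 65.65 to 67.66% in the first set and 39.28 to 49.11% in the second. The part of this in the Nr2f1 difference was not tested. The Nr2f1 call was lost by DESeq2 (-0.85, adjusted p = 0.116), with no filter on low counts (-0.86, adjusted p = 0.0516), in the fit over all libraries (-0.83, adjusted p = 0.167) and without second-set replicate 1 (-0.73, adjusted p = 0.0718) or 3 (-0.80, adjusted p = 0.0627) or first-set replicate 2 (-0.73, adjusted p = 0.0647) or 5 (-0.78, adjusted p = 0.054). Between strains on HFD, Nr2f1 averaged 1.92 ± 1.04 CPM in 129 mice and 3.17 ± 0.922 CPM in B6 mice (-0.66 ± 0.36, adjusted p = 0.15), and it passed without 129 replicate 1 (-1.11, adjusted p = 0.018).

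**Figure D5:**
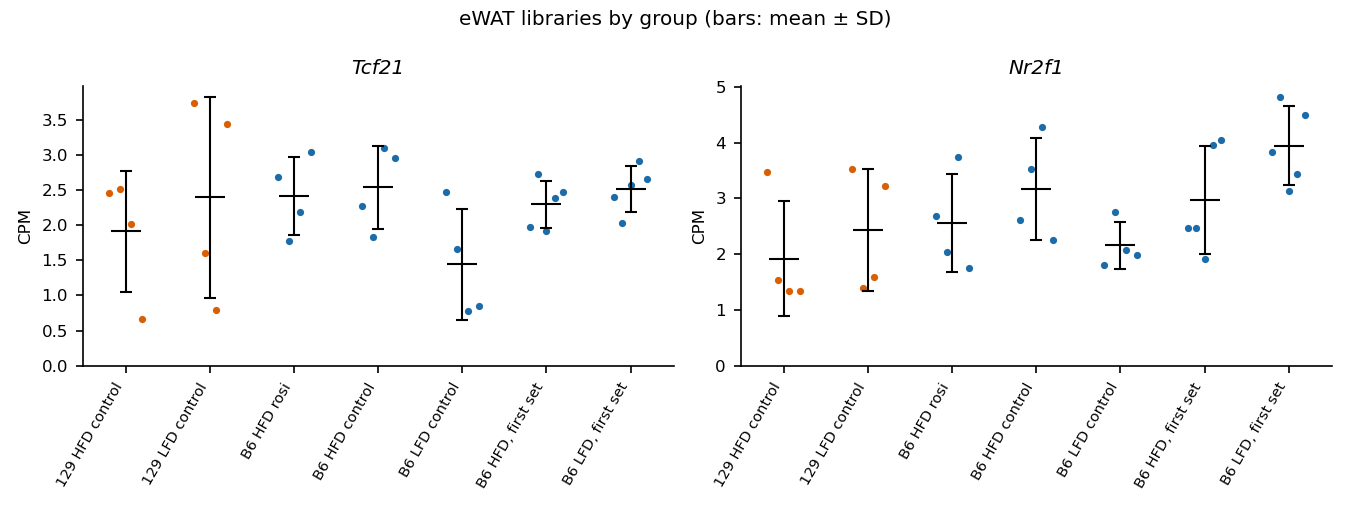
CPM of Tcf21 and Nr2f1 in the 30 eWAT libraries by group, with 1 point per library and bars for the mean ± SD (n = 5 in the first set, n = 4 elsewhere). Group means lay between 1.44 and 2.53 CPM for Tcf21 and between 1.92 and 3.95 CPM for Nr2f1, where it was highest in the first B6 LFD set.

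Counted over eWAT, edgeR called 0 of 1 tested member for diet in the first B6 set, 0 of 2 in the second set and 0 of 1 in 129 mice. It called 0 of 2 for rosi, 0 of 1 for strain on LFD, 0 of 2 for strain on HFD, and 0 of 2 between sets on HFD. In each of these, 0 members had an unadjusted p under 0.05, and DESeq2 called 0 apart from 1, Tbx15, for diet in the first set. Of the 20 Tbx15 counts on LFD in that set, 16 lay in replicate 3, the eWAT library with the highest muscle share (0.583%). The shares of all genes called were 58% and 50% for diet in the 2 B6 sets, 21.2% for diet in 129 mice, 0% for rosi, 32.3% and 54.2% for strain on LFD and HFD, and 10.9% between sets on HFD. For rosi, 0 of 13213 genes were called by edgeR, 624 had an unadjusted p under 0.05 and DESeq2 called 32. The depot by rosi interaction called 0 of 5 members (0% of genes), with 1 at an unadjusted p under 0.05 and 0 by DESeq2, and the strain by diet interaction called 0 of 2 (40.2% of genes), with 0 and 0. Macrophage markers made up 0.389 to 1.21% of counts in B6 HFD control eWAT and 0.0799 to 0.169% in B6 LFD control eWAT, and their part in the Tcf21 and Nr2f1 values was not tested.

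The related factors were counted in iWAT in the same way. For HFD against LFD in B6 iWAT, 1 of 11 tested relatives was higher and 0 lower, and 1 of 24 other patterning factors was higher and 7 lower. Of all tested genes, 22.7% were called there. Ebf2 was lower on HFD (log2 fold change -1.01 ± 0.11, n = 4 each, edgeR adjusted p = 0.000511), and Tbx2 was higher (0.90 ± 0.25, adjusted p = 0.0293). Every LFD library held more muscle counts than any HFD library, so diet and muscle cannot be told apart for these factors either. For rosi in B6 iWAT, 0 of 9 relatives were higher and 2 lower, and 0 of 22 other factors were higher and 2 lower, with Tcf15, a relative of Tcf21, at -0.89 ± 0.22 (adjusted p = 0.0228). The share of all genes called for rosi in B6 iWAT was 13.2%. In F1 iWAT, Nr2f6 was higher with rosi (0.69 ± 0.18, n = 5 each, adjusted p = 0.00905) and Osr1 lower (-1.29 ± 0.40, adjusted p = 0.021). In 129 iWAT, 0 of 9 relatives and 0 of 23 other factors were called for rosi, with 0.11% of all genes called. Between strains, Tbx2 was lower in 129 than in B6 control iWAT (-0.86 ± 0.27, n = 4 each, adjusted p = 0.0337), 1 of 9 relatives, and 6 of 23 other factors were higher and 3 lower. The share of all genes called between these strains was 27.8%.

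The genes most like each member were found by Pearson r of log2(CPM + 1) over the 15 group means, among 15753 genes. The groups share libraries of a depot and a run, so r mostly reflects depot and is given as a description. For Zic1 they were A530050N04Rik (0.985), A530065N20Rik (0.982) and Nrtn, the growth factor neurturin (0.968), and for Tbx5 Slc12a2, a chloride transporter (0.938), Rorb (0.934) and Gfra3 (0.925), all highest in BAT. For Lhx8 they were AI606473 (0.957), Optn (0.912) and D16Ertd472e (0.911), highest in B6 iWAT on HFD with rosi. Genes like Shox2 included Hoxa10 (0.985) and Hoxa9 (0.974). Those like Tbx15 included Cdh19 (0.978) and Kcna2 (0.964), and those like En1 included Mal (0.937) and Dkk2 (0.927).

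Cdh19 is on the list of 10 nerve and Schwann markers, which as a whole made up 0.0418 to 0.0526% of counts in BAT, 0.0387 to 0.109% in eWAT and 0.0421 to 0.126% in iWAT, ranges that overlapped. Its part in the levels of Shox2, Tbx15 and En1 was not tested. Tcf21 was most like Cdh11, a mesenchymal cadherin (0.982), and the collagens Col6a5 (0.978) and Col8a2 (0.978), all highest in B6 eWAT on HFD. For Nr2f1 they were Ptk7 (0.973), Star, a cholesterol carrier of steroid-making cells (0.958), and Folr1 (0.946), highest in the first B6 eWAT set.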

How the data were processed

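Gene counts came from 64 libraries of mouse fat, 1 deposited count table each. Per the submitters' processing notes, reads were aligned to mm9 with TopHat2 2.1.0 and counted with HTSeq by the authors; the annotation and strand setting are not given in the sources used here. Ribosomal RNA was depleted, per the labels' protocols. The 5 tallies of unassigned reads stayed out of library sizes and tests; reads outside genes were 29.3 to 70.6% and ambiguous reads 0.195 to 1.23% of these and the gene counts together.

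CPM used TMM sizes over all libraries. Each of 18 comparisons and 4 interactions was fitted on its own groups with edgeR 4.0.16 in R 4.3.3 (glmQLFit, glmQLFTest, 2-sided, filterByExpr with minimum count 10 and total 15), Benjamini-Hochberg adjusted over all genes tested, with calls under 0.05. Scripts were tested on simulated data. Counts are of reads, so floors (3 counts) and intervals cover counting error only. Depth of 3099737 to 9551251 counts per library leaves 1 read worth a visible step for members near 1 CPM.

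Alternatives were DESeq2 1.42.0, its size factors in edgeR, unscaled totals, no filter, a fit over all libraries, the replicate number as a block, and leaving out each library. Replicate numbers paired the samples only for BAT against iWAT, where same-numbered deviations correlated at 0.215 to 0.321 and the block changed no call; the labels do not say what a number shares.

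Named genes were the 8 members, relatives and other patterning factors by lowest adjusted p (up to 6 each way in depot comparisons, 3 elsewhere), and the 3 genes most like each member with a group mean of at least 1 CPM; not all that qualified are printed, and some are not reported here. Members and lists were chosen with earlier results of these data known. Promoters are from RefSeq, GRCm38.p6.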

Additional observations from a re-analysis of the deposited data

Results flagged for a closer look

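In 51 sets of 1 member and 1 group with a mean of at least 5 counts, 3 had a library far from the others of its group by Dixon's test, and chance gives about 1 in 20. Zic1 was at 2.4 CPM in B6 HFD BAT replicate 3, while the other 3 libraries lay at 4.69 to 5.02 CPM. Tbx15 was at 30.4 CPM in F1 LFD control iWAT replicate 3, while the other 4 lay at 14.6 to 18.7 CPM. Muscle markers made up 0.0121% of counts in that library, within the 0.0105 to 0.02% of its group. Nr2f1 was at 3.47 CPM in 129 HFD control eWAT replicate 1, while the other 3 lay at 1.34 to 1.54 CPM.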

How the results depend on the processing

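The 3 members that separated eWAT from iWAT libraries were 3 under both other CPM scalings and with muscle-rich libraries left out. Counts of called members in BAT against iWAT, BAT against eWAT and eWAT against iWAT of B6 mice stayed within 1.5 times of 4, 5 and 5 in all alternatives. For eWAT against iWAT in 129 mice, 2 became 6 by DESeq2, 7 with no filter and 7 in the fit over all 64 libraries, where members of low count enter the test. Over all genes, 2264 calls there became 2304 by DESeq2 and 1448 in that fit. For diet in B6 iWAT, 1 became 2 by DESeq2, with library totals, in the fit over all libraries and with the replicate block. For diet in B6 eWAT, 0 became 1 in the first set by DESeq2 and in the fit over all libraries (Tbx15), and 1 in the second set with no filter (Tbx15) and over all libraries (Tbx5). For the second against the first set on LFD, 1 became 0 by DESeq2, with no filter, over all libraries and with the block. The replicate block left 0 of 1 for strain in rosi iWAT and for rosi in B6 iWAT, and gave 1 for rosi in F1 iWAT (Shox2). The numbers mark no known pairing in these, and the cause was not tested. Strain in rosi iWAT kept a count of 1 in the fit over all libraries, but the member was Shox2 (-0.74, adjusted p = 0.043) and not Lhx8 (adjusted p = 0.0622).

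With each library left out in turn, counts ran from 4 to 5 for BAT against iWAT, 4 to 6 for BAT against eWAT, 5 to 5 and 2 to 3 for eWAT against iWAT in B6 and 129, 1 to 1 and 0 to 1 for strain in control and rosi iWAT, 0 to 0 and 0 to 1 for strain in eWAT on LFD and HFD, 1 to 2 for diet in B6 iWAT, 0 to 1 for rosi in B6 iWAT and in F1 iWAT, and 0 to 1 between sets on LFD. All other counts, interactions included, were 0 throughout.

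Changes of sign touched only differences that were not called. Of 381 fold changes in other settings 8 reversed, and of 642 with a library left out 33 reversed. Tcf21 for rosi in eWAT (0.03) was -0.03 with no filter and -0.00 over all libraries, and ran from -0.17 to 0.17 with a library left out. In the depot by rosi interaction, Lhx8 (-0.01) was 0.05 by DESeq2, 0.00 with DESeq2 size factors, 0.07 with totals and 0.02 with the block, and ran from -0.35 to 0.35 in omissions. Shox2 in it (0.03) was -0.02 with no filter and -0.01 over all libraries, and ran from -0.37 to 0.35. Nr2f1 in it ran from -0.04 to 1.22. With a library left out, Shox2 for rosi in 129 iWAT ran from -0.13 to 0.34, Tbx15 for strain in control iWAT from -0.29 to 0.32, Nr2f1 between sets on HFD from -0.15 to 0.16, Tcf21 there from -0.04 to 0.19, Tcf21 in strain by depot from -0.32 to 1.62 and Tbx15 in strain by rosi from -0.54 to 0.06. Calls over all genes moved by over 1.5 times in 15 of 132 other settings. With the replicate block they were 1259 against 2008 for strain in rosi iWAT, 1028 against 1689 for rosi in B6 iWAT, 4 against 14 for rosi in 129 iWAT, 300 against 1431 between sets on HFD and 1 against 14 for strain by rosi. By DESeq2 they were 193 against 14 for rosi in 129 iWAT, 32 against 0 for rosi in eWAT, 96 against 14 for strain by rosi and 3 against 0 for depot by rosi. Over all libraries they were 1448 against 2264 for 129 eWAT against iWAT, 1060 against 2657 for diet in 129 eWAT, 152 against 0 for rosi in eWAT, 2715 against 1431 between sets on HFD, 9 against 14 for strain by rosi and 3 against 0 for depot by rosi. Of 240 levels, 1 moved by more than its SD, Shox2 in BAT at 1.15 CPM on library totals against 1.28. Depth limits Zic1, En1 and Tbx5 in white fat, Lhx8 in eWAT and Shox2 in eWAT and BAT, where 1 read is a large part of a library's value.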
